A study of Homo sapiens with 3 samples.

Results

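Broad peaks were the intervals of 100 bases or more in the peak lists of RPL22-HaloTag and RPL22L1-HaloTag made by GoldCLIP-seq. The cells were HCT116, a long-established line from a human colorectal carcinoma. In GoldCLIP, proteins are crosslinked to RNA and the HaloTag bonds covalently to beads, which allows denaturing washes without a gel. Each list came from 1 library, of cells with RPL22-HaloTag or of cells with RPL22L1-HaloTag. The library of cells with HaloTag only was not analysed here. The labels give no treatment, and they do not say which promoter drives a fusion, whether a line is 1 clone or whether the untagged proteins were still made. The lists are called the RPL22 list and the RPL22L1 list after the fused protein. On chromosomes 1 to 22 and X, 1906 of 153832 RPL22 peaks (1.24%) and 3420 of 254172 RPL22L1 peaks (1.35%) were broad. Together these were 5326 of the 408413 peaks of the series. The members were chosen by their measured width, so width itself is described without a test. With 1 library per fusion and no replicates, no test between the fusions was possible, and all intervals given are exact Clopper-Pearson 95% intervals that cover counting error only.

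RPL22 is an RNA-binding protein of the large subunit of the ribosome. Its paralog RPL22L1 can take its place there. Both have been described to act on RNA outside the ribosome, including on the splicing of pre-mRNA. A CLIP peak marks a stretch of RNA where crosslinked fragments pile up, and a wide peak can come from a long site, from several neighbouring sites or from fragments spread along an abundant RNA. The width alone does not tell these apart.

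A few broad peaks covered short RNAs whose sequence can be shown in full. Broad peaks of both lists lay on the hairpins of MIR222 and MIR23A, microRNA precursors that are cut to short mature strands. The mature sequences below are those that both lists covered to the last base, together with that of miR-221, a neighbour of miR-222 on the X chromosome. They run 5′ to 3′ with the seed, bases 2 to 8, in capitals, and come from RefSeq on GRCh38.
hsa-miR-222-3p: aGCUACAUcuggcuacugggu
hsa-miR-222-5p: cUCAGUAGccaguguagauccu
hsa-miR-23a-3p: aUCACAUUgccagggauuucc
hsa-miR-23a-5p: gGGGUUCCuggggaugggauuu
hsa-miR-221-3p: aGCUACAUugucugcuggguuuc
miR-222-3p and miR-221-3p share the seed GCUACAU, and the other 3 strands have seeds of their own. On the MIR222 hairpin (chrX:45747015-45747124, minus strand) the broad peaks were chrX:45746985-45747117 in the RPL22 list, with a score of 1091, and chrX:45746984-45747117 in the RPL22L1 list, with a score of 438. Both covered 93.6% of the hairpin, and both ended on the same base. Their summits, both inside the hairpin, lay 56 bases apart. The score is the authors' own whole number per peak, and it is used here only to rank peaks within 1 list. On MIR23A (chr19:13836587-13836659, minus strand) the peaks were less alike. The RPL22 peak covered the whole hairpin and ran 84 bases past its higher end, while the RPL22L1 peak covered 89.0% of it and ran 46 bases past its lower end. The RPL22 summit lay outside the hairpin and the RPL22L1 summit inside. The RPL22L1 list alone had a broad peak on the MIR221 hairpin, and it covered 0 bases of miR-221-3p. In all, 2 RPL22 and 7 RPL22L1 broad peaks shared a base with 1 of 1558 hairpins of the sequence table, or 0.105% and 0.205%, against 0.0332% and 0.0358% of all peaks. A wider peak meets a hairpin more easily, and these counts are small. The further RPL22L1 peaks lay on MIR186, MIR29B1, MIR3064 and MIR4680, and none of these 4 shared a base with any RPL22 peak. The same held for 1565 of all 3420 RPL22L1 broad peaks and for 227235 of all 254172 RPL22L1 peaks. The peak on MIR3064, within DDX5, an RNA helicase gene, had the highest score of the 7, at 2472, and covered the hairpin whole. By the larger gene table, 3 RPL22 and 9 RPL22L1 broad peaks touched a microRNA gene. MIR6835, with overlapping broad peaks in both lists, and MIR30D, in the RPL22L1 list, came in addition. The summit lay inside the microRNA gene in 1 of the 3 RPL22 and 3 of the 9 RPL22L1 broad peaks.

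A second set of sequences comes from broad peaks at gene starts. The RefSeq promoter table holds 250 bases before and 50 bases after the start of 34961 genes, and 55 RPL22 broad peaks shared a base with such a window. That was 2.89% of them (interval 2.18 to 3.74), against 1.41% of all RPL22 peaks. In the RPL22L1 list 23 broad peaks did so, or 0.673% (0.427 to 1.01), against 0.731% of all its peaks. The share among broad peaks was thus above that of the whole list for RPL22 and close to it for RPL22L1. Narrower peaks, without those of 30 bases with the summit in the middle, reached 1.83% for RPL22 and 0.776% for RPL22L1. A wider peak meets a window more easily, and 10 of the 55 RPL22 broad peaks lay wholly inside one. For the 23 RPL22 and 14 RPL22L1 broad peaks whose summit lay at least 15 bases inside a window, the 30 bases around the summit could be read. Their median GC content was 60% for RPL22 and 45% for the few of RPL22L1. Over the windows of all genes the median was 58.7%. It was 65% over the windows of 10889 genes with an RPL22 peak and over those of 11158 genes with an RPL22L1 peak. Examples with high rank or a partner in the other list are shown on the strand of the window's gene, with the summit base in capitals.
SKP1, RPL22 list: cgtcttcggtttttCtcttccttcgctaac
CCT5, RPL22 list: aatatgggcgcccttTcctcatcatcaagg
RPS27, RPL22 list: ggcggtgacgacctaCgcacacgagaacat
VPS29, RPL22 list: aaatacatcacctcaTcgaagtctcctctc
VPS29, RPL22L1 list: agtctcctctcacaaTatgaacatcaccag
UBB, RPL22L1 list: gtgggtggacgtggtTggtgattggcagga
UPF3A, RPL22L1 list: acatttcagtaaaacGtgtccgttccgtca
The SKP1 stretch is chr5:134176908-134176937, minus strand, in the gene of a ubiquitin ligase adaptor, and its peak had a score of 1443. The CCT5 stretch, chr5:10250372-10250401, plus strand, lies in the gene of a chaperonin subunit. The RPS27 stretch, chr1:153990769-153990798, plus strand, is at the start of a gene for a small ribosomal subunit protein, with the summit 22 bases after the start. The VPS29 stretches, chr12:110496001-110496030 and chr12:110496020-110496049, lie in the gene of a retromer subunit and are shown on the plus strand of LOC124903015. Their window is that of LOC124903015 and not that of VPS29, so they are not given as the start of VPS29. The lists have no strand, so these letters need not be those of VPS29 RNA. Both VPS29 stretches belong to broad peaks that overlap each other (scores of 519 and 607 in their own lists). The UBB stretch, chr17:16381136-16381165, plus strand, lies in a polyubiquitin gene. The UPF3A stretch, chr13:114282257-114282286, plus strand, lies in a gene of nonsense-mediated decay.

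Broad peaks were mostly little wider than the minimum and ranked high in their lists. RPL22 broad peaks had a median width of 116 bases, quartiles of 107 and 131 and a maximum of 320. The median was 118 bases in the RPL22L1 list, with quartiles of 108 and 135 and a maximum of 420. They took up 234 kb and 430 kb, or 4.32% and 4.82% of all bases under peaks. The median score of RPL22 broad peaks was 166.5, with a lowest of 14 and a highest of 9915, and the median of all RPL22 peaks was 33. For RPL22L1 the median was 368.5, with a lowest of 30 and a highest of 947384, and the median of all its peaks was 124. The median broad peak thus scored above 93.5% of RPL22 peaks and above 93.4% of RPL22L1 peaks. The median summit position was 49.6% of the width from the lower end for RPL22 (quartiles of 23.6% and 76.4%) and 50.9% for RPL22L1 (24.3% and 77.1%). The summit lay in the first or last 10 bases of 88 of 1906 and 159 of 3420 broad peaks.
The limit of 100 bases marked no step. RPL22 peaks of 95 to 99 bases had a median score of 156.5 (420 peaks) and those of 100 to 104 bases 151 (343 peaks), and 68.1% and 69.7% of them overlapped the other list. In the RPL22L1 list the scores were 338 (597 peaks) and 337.5 (536 peaks), and the overlapping shares 46.6% and 46.8%.

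Most RPL22 broad peaks, and 54.2% of the RPL22L1 ones, lay on a peak of the other list. At least 1 base was shared by 1401 of 1906 RPL22 broad peaks, or 73.5% (71.5 to 75.5), against 17.4% of all RPL22 peaks. Among RPL22L1 broad peaks 1855 of 3420 did so, a share of 54.2% (52.6 to 55.9), against 10.6% of all. The RPL22L1 list is longer, so the 2 shares are not on the same footing. A wide peak also has more bases that can meet another. With the summit base alone required to lie in a peak of the other list, the shares were 47.2% (against 13.0% of all) and 36.4% (against 7.88% of all).
The share rose with width. Of RPL22 peaks 30 bases wide, the smallest width, 9.43% overlapped, of those of 80 to 99 bases 57.0%, of those of 100 to 119 bases 71.6%, and of the 29 of 200 bases or more 89.7%. In the RPL22L1 list the same widths gave 6.59%, 36.3%, 50.1% and 65.6%, with 66.8% for 150 to 199 bases.

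**Figure D1:**
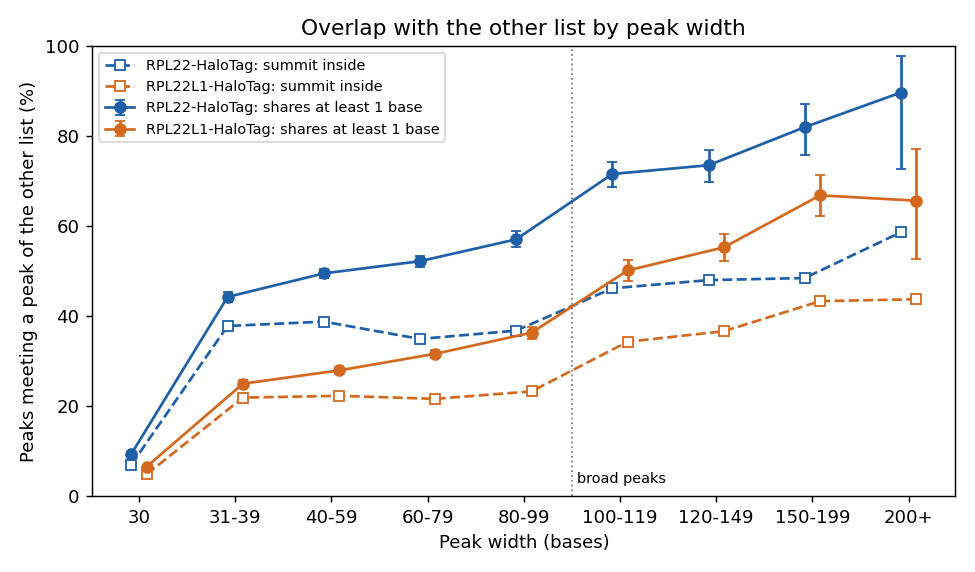
Share of peaks (%) that meet a peak of the other list, by peak width in bases. Filled circles count any shared base with its exact 95% interval, open squares count the summit alone, and the dotted line marks 100 bases. For RPL22-HaloTag the share with a shared base climbs from 9.43% at 30 bases to 89.7% at 200 bases or more, and for RPL22L1-HaloTag from 6.59% to 65.6%.

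Median scores were lowest at 30 bases but did not rise steadily with width. In the RPL22 list they were 33 at 30 bases, 122 at 31 to 39, 87 at 60 to 79 and 151 at 100 to 119. Among broad peaks the Spearman correlation of width and score was 0.105 for RPL22 and 0.130 for RPL22L1. Since scores differed between widths, overlap was also read within ranges of score. Among RPL22 peaks with scores from 100 to below 300, 75% of broad peaks, 51.1% of peaks of 31 to 99 bases and 30.2% of 30-base peaks overlapped. By the summit alone these were 47.2%, 40% and 25.4%. From 300 to below 1000 the summit shares of broad peaks and of those of 31 to 99 bases lay close, at 66.9% (61.7 to 71.8) and 65.6% (63.6 to 67.6). Among RPL22L1 peaks with scores from 300 to below 1000, the overlapping shares were 64.1%, 37.8% and 10.4%, and the summit shares 44.1%, 30.3% and 8.36%. Below a score of 100 the intervals of RPL22L1 broad peaks (17.9%, 12.1 to 24.9) and of those of 31 to 99 bases (15.9%, 14.8 to 17.1) overlapped.

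The partner of a broad peak was usually narrower. Partners had a median width of 56 bases for RPL22 broad peaks and 55 for RPL22L1 ones, and 30.8% and 18.8% were 30 bases wide. A broad peak mostly held 1 partner: 1182 RPL22 ones had 1, 217 had 2 and 2 had 3. The summits of a broad peak and its partner lay a median of 26 bases apart for RPL22 and 21 for RPL22L1, and within 10 bases in 31.2% and 34.4%. Broad peaks without a partner had lower scores, with medians of 120 against 185 for RPL22 and 276 against 449 for RPL22L1. Of the 505 RPL22 ones, 132 lay within 100 bases of an RPL22L1 peak and 149 were 1000 bases or more away. Of the 1565 RPL22L1 ones, 153 and 836 did so.

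In 306 places both lists had a broad peak. They were 16.1% of the RPL22 broad peaks (against 1.30% of all RPL22 peaks that met an RPL22L1 broad peak). The 305 RPL22L1 broad peaks involved were 8.92% of theirs (against 0.638%). Both peaks of a pair shared a median of 106 bases, 73.7% of the stretch they covered together. The RPL22L1 peak was wider in 173 pairs, the RPL22 peak in 129, and 4 had the same width. Summits were less alike than outlines: they lay a median of 31 bases apart and within 10 bases in 98 pairs. In 3 pairs both ends were identical, in CHMP2B (chr3:87245802-87245920), an ESCRT subunit gene, NT5E (chr6:85451979-85452119), the gene of the ecto-nucleotidase CD73, and NPLOC4 (chr17:81597220-81597341), the gene of a p97 cofactor. These 3 had scores of 113, 120 and 141 for RPL22 and of 348, 319 and 214 for RPL22L1.
The pairs lay in 281 genes, 289 of the 306 in protein-coding ones. CLTC, the clathrin heavy chain, and XRCC5, the Ku80 subunit of DNA end joining, held 3 pairs each, and 16 genes held 2, among them CD44, EEF1A2 and P4HB. The highest-scoring pair in a protein-coding gene was in HNRNPA2B1, an hnRNP protein that binds pre-mRNA. It spanned chr7:26190353-26190457 in the RPL22 list (score 3937) and chr7:26190353-26190473 in the RPL22L1 list (score 8087), with summits 1 base apart. Next by RPL22 score came CLTC (chr17:59694510-59694661, score 2630, and chr17:59694514-59694664, score 734), where the outlines nearly matched and the summits lay 102 bases apart. The pair in P4HB, a protein disulfide isomerase, had scores of 1780 and 1238 and summits 4 bases apart. In CANX, the calnexin gene, the scores were 1079 and 1316 and the summits fell on the same base (a distance of 0).

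Broad peaks lay in protein-coding genes more often than the lists as a whole. A summit was given to the shortest RefSeq gene holding it, and by that rule 1798 RPL22 broad peaks, or 94.3% (93.2 to 95.3), lay in protein-coding genes, against 79.9% of all RPL22 peaks. For RPL22L1 it was 3173, or 92.8% (91.9 to 93.6), against 81.7%. Part of this gap is shared with other peaks: of narrower peaks that are not flat (a flat peak is 30 bases wide with its summit in the middle), 88.1% and 87.5% lay in protein-coding genes. Summits outside genes were 22 RPL22 broad peaks, or 1.15% (against 9.68%), and 73 RPL22L1 ones, or 2.13% (against 8.72%). Genes of lncRNA held 71 and 135, or 3.73% (against 8.61%) and 3.95% (against 8.08%), and pseudogenes held 7 (0.367%, against 1.61%) and 20 (0.585%, against 1.33%). The gene table has no exons, so exonic, intronic and UTR positions are not given, and the lists have no strand, so overlapping genes on opposite strands cannot be told apart.

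**Figure D2:**
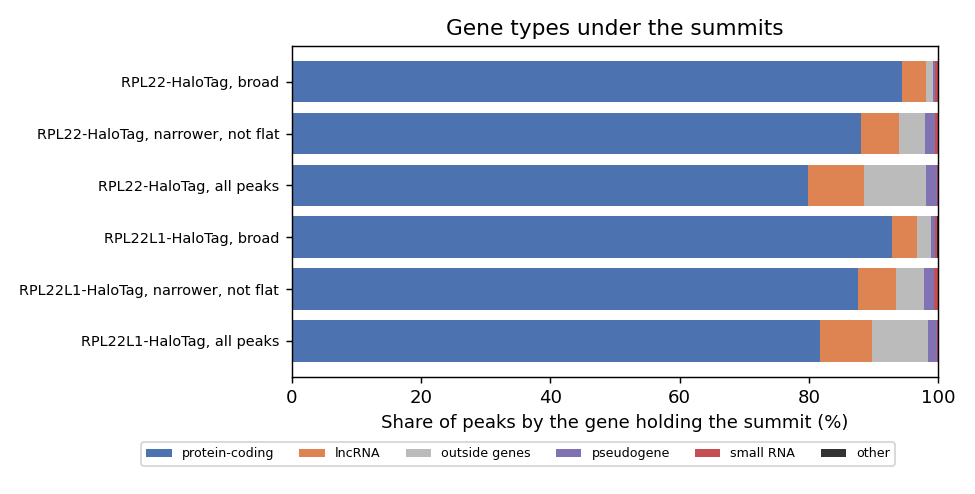
Share of peaks (%) by the type of the shortest RefSeq gene holding the summit, for broad peaks, for narrower peaks that are not flat and for all peaks of each list. Protein-coding genes take 94.3% and 92.8% of broad peaks, against 79.9% and 81.7% of all peaks.

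Within protein-coding genes, broad peaks were dense towards the end of the gene, and RPL22L1 ones were sparse at its start. The strand was known for the genes of 1505 of 1798 RPL22 and 2696 of 3173 RPL22L1 broad peaks. The last 10% of the gene's length held 19.7% (17.7 to 21.8) and 20.9% (19.4 to 22.5) of them. That was near the 18% and 20.8% of narrower peaks that are not flat. The first 10% held 9.97% (8.5 to 11.6) of RPL22 broad peaks, near the 10.6% of those narrower peaks and below the 12% of all RPL22 peaks. For RPL22L1 it held 4.86% (4.08 to 5.74), below 7.78% and 9.99%. Summits within 1000 bases of the gene start were 94 RPL22 broad peaks, or 6.25% (5.08 to 7.59), against 4.57% of all RPL22 peaks and 5.69% of narrower peaks that are not flat in such genes. For RPL22L1 they were 46, or 1.71% (1.25 to 2.27), against 2.51% and 2.73%. RPL22 broad peaks thus lay above their list within 1000 bases of the start, with the narrower peaks inside their interval, but below it in the first 10% of the gene. RPL22L1 ones lay below their list by both measures. A fixed distance is a larger part of a shorter gene, and gene lengths differed between these sets of peaks, as given below. The part of gene length in these shares was not tested. Within 5000 bases of the gene end both lists were alike, with 27.1% (against 17.5%) and 27.2% (against 18.8%). Narrower peaks that are not flat reached 23.6% and 26.0%. The RPL22L1 value lay inside the interval of its broad peaks (25.5 to 28.9), and the RPL22 value just below that of its own (24.9 to 29.4).

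**Figure D3:**
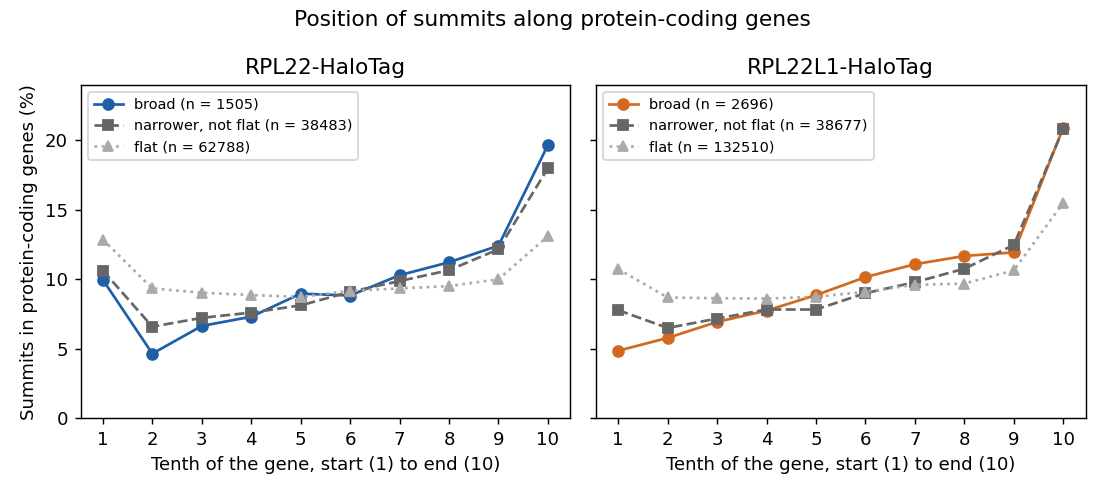
Share of summits in protein-coding genes of known strand (%) in each of 10 equal parts of the gene from start (1) to end (10), for broad peaks, for narrower peaks that are not flat and for flat peaks. The last part holds 19.7% of RPL22-HaloTag and 20.9% of RPL22L1-HaloTag broad peaks, and the first part 9.97% and 4.86%.

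Broad peaks were spread over many genes. They lay in 1545 genes in the RPL22 list, 1280 of which held 1, and in 2172 genes in the RPL22L1 list, 1478 of which held 1. Genes with 3 or more numbered 53 and 263. Both lists had a broad peak in 677 genes, 43.8% of the RPL22 and 31.2% of the RPL22L1 genes. Of genes with any peak, 81.3% and 77.1% held a peak of the other list, and of genes with a broad peak 99.2% and 98.4% did. Genes with a broad peak were longer than genes with any peak, with medians of 44636 against 25760.5 bases for RPL22 and 44972 against 24612 for RPL22L1. Counted per peak in protein-coding genes of known strand, the order was the reverse. The median gene length was 50.7 kb for RPL22 broad peaks, 58.2 kb for narrower ones that are not flat and 80.5 kb for all. For RPL22L1 these were 53.0, 59.5 and 81.0 kb.
DST, the gene of the cytoskeletal linker dystonin, held the most, with 15 broad peaks of 463 in the RPL22L1 list and 2 of 131 in the RPL22 list. KITLG, the ligand of the receptor KIT, held 11 of 141 and 1 of 15. USP34, a deubiquitinase, held 8 and 3, LRBA, a vesicle trafficking gene, 7 and 4, CLTC 6 and 4, and XRCC5 6 and 3, RPL22L1 first. MARK3, a kinase, held 5 broad of 38 RPL22 peaks and 0 of 56 RPL22L1 peaks. DOCK5, a GTP exchange factor, held 5 of 54 and 0 of 104, and FANCI, of the Fanconi anaemia pathway, 4 of 31 and 0 of 57. In the other direction, RPL22L1 first, ARHGAP29, a GTPase activator, held 9 of 141 and 0 of 14. SMARCA5, a chromatin remodeller, held 7 of 46 and 0 of 9, and ATP13A3, a transporter, 7 of 95 and 0 of 34. With 1.24% of all RPL22 and 1.35% of all RPL22L1 peaks broad, 0 among such numbers is near the share of the list. These genes were picked after their values were seen.
Another broad peak lay within 1000 bases of 293 RPL22L1 broad peaks, or 8.57%, and of 76 RPL22 ones, or 3.99%. The RPL22L1 list is denser as a whole: the median gap from any peak to its nearest neighbour was 652 bases, against 1423 in the RPL22 list. On chromosome 19 82 of 6153 RPL22 peaks were broad, or 1.33% (1.06 to 1.65), and 51 of 6669 RPL22L1 peaks, or 0.765% (0.570 to 1.0). On chromosome 10 the order was the reverse, with 1.20% (0.966 to 1.48) and 1.65% (1.44 to 1.89). These chromosomes were picked after their values were seen.

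The broad peaks of highest score in protein-coding genes differed between the lists apart from HNRNPA2B1. In the RPL22 list they followed with PRKAR2A, a regulatory subunit of protein kinase A (chr3:48747653-48747777, score 3687), RPL8, of the large ribosomal subunit (score 3303), ILRUN (chr6:34588261-34588400, score 3246) and HS3ST1, a heparan sulfate sulfotransferase (chr4:11399266-11399412, score 3227). All 4 lay on a narrower RPL22L1 peak, of 30 to 43 bases. These partners ranked 47287, 8761, 7406 and 3691 in the RPL22L1 list. The glycolytic enzyme gene ENO1 (score 2172), P2RX5, an ATP-gated channel (1597), and RAB5B, an endosomal GTPase (1443), were also among the highest-scoring peaks in protein-coding genes, as were CLTC and P4HB. SKP1, shown above, tied with RAB5B.
In the RPL22L1 list VMP1, an autophagy gene, came first (chr17:59839774-59839905, score 27319), on an RPL22 peak of 32 bases. RPL15, of the large ribosomal subunit, was next (chr3:23920392-23920499, score 16384), on an RPL22 peak of 53 bases. They were followed by ARHGAP29 (chr1:94201716-94201828, score 8586), HNRNPA2B1, HNRNPDL, an hnRNP-like protein (chr4:82424757-82424856, score 8042), and SAT1, a polyamine acetyltransferase (chrX:23785289-23785453, score 5420). The HNRNPDL peak, and 2 broad peaks in SAT1, met no RPL22 peak. The RPL22 peaks under the named peaks of VMP1, RPL15 and ARHGAP29 ranked 211, 106 and 326 in the RPL22 list. Their scores were 7302, 18284 and 3153.
The top RPL22 broad peaks without a partner were in STX16, a Golgi syntaxin (score 1075), TYK2, a Janus kinase (908), USP11, a deubiquitinase (822), and CAPZB, an actin capping subunit, and RAB7A, a late endosomal GTPase (795 each).
The widest broad peak of the RPL22 list covered 320 bases of ISYNA1, the inositol-3-phosphate synthase gene (chr19:18436354-18436673, score 547). MRPS21, of the mitochondrial ribosome, followed with 281 bases (chr1:150308058-150308338, score 636). The widest RPL22L1 peaks covered 420 bases of CAND1, a cullin exchange factor gene (chr12:67305274-67305693, score 698), and 328 bases of N4BP2L2 (chr13:32536709-32537036, score 226). All 4 met a peak of the other list. Of the 10 widest, 8 RPL22 and 5 RPL22L1 peaks did so.

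Genes for RNA-binding and translation proteins held broad peaks at higher shares than the lists. Of 219 RPL22 peaks in hnRNP and SR protein genes, splicing factors that bind pre-mRNA, 11 were broad, or 5.02% (2.53 to 8.81), against 1.24% of the list. Of 744 RPL22L1 peaks 43 were, or 5.78% (4.21 to 7.71), against 1.35%. They fell in 8 and 21 of 38 genes. The 7 genes with both were HNRNPA2B1 (2 RPL22 and 3 RPL22L1 broad peaks), HNRNPR (2 and 3), HNRNPAB (1 and 3), SRSF11 (2 and 2), SRSF6 (1 and 2), HNRNPD (1 and 1) and SRSF4 (1 and 1). HNRNPH1 and SRSF1 held 5 RPL22L1 broad peaks each, of 22 and 33 peaks, and 0 of RPL22, which had 5 peaks in each. An RPL22 count of 0 among 5 peaks is near the share of its list. In the RPL22 list SRSF9 alone had a broad peak without one in the RPL22L1 list.
Genes with EIF or EEF symbols, mostly translation initiation and elongation factors and some of their kinases and partners, held 17 broad of 534 RPL22 peaks, or 3.18% (1.87 to 5.05). In the RPL22L1 list they held 34 of 1200, or 2.83% (1.97 to 3.94). EEF1A2, an elongation factor, had 5 and 2, and EIF3A, of the initiation complex eIF3, 1 and 3. EIF2A, EIF2AK1, EIF2S3 and EIF4G3 had 1 in both lists. EIF2S1 and EIF3B had 4 RPL22L1 broad peaks each, of 31 and 28 peaks, and 0 of RPL22, which had 8 and 12 peaks in them. Here too 0 is near the share of the RPL22 list, 1.24%.
Ribosomal protein genes showed the same kind of share. Broad peaks lay in 5 and 12 of the 85 genes, and no gene held them in both lists. With so few genes, the lack of a common one says little. Broad were 7 of 156 RPL22 peaks, or 4.49% (1.82 to 9.03), in RPL8 (3), RPLP0, RPS19, RPS27 and RPS28 (1 each). Of 453 RPL22L1 peaks 14 were, or 3.09% (1.70 to 5.13), in 12 genes, among them RPL15, RPL14 (score 1658), RPL11 (1594) and RPS25 (1285).
Both proteins' own genes were among those 12. RPL22 held 1 RPL22L1 broad peak (chr1:6197690-6197808, score 368), on an RPL22 peak of 41 bases. RPL22L1 held 2, chr3:170868006-170868203 (score 3474) and chr3:170866389-170866498 (score 1886), on RPL22 peaks of 63 and 30 bases. The RPL22 list had 0 broad peaks in either gene, among 5 peaks in RPL22 and 4 in RPL22L1. With 1.24% of all RPL22 peaks broad, 0 among so few is near the share of the list. How far RNA from an introduced fusion gene adds to reads of these genes was not tested.
Histone genes held 6 of 108 and 8 of 175 broad peaks, or 5.56% (2.07 to 11.7) and 4.57% (1.99 to 8.81). Many histone genes are near-identical copies, so reads there may be split between them. Genes with HSP symbols, mostly chaperones, held 3 of 138, or 2.17% (0.451 to 6.22), and 11 of 262, or 4.20% (2.11 to 7.39), with HSPH1 in both. Mitochondrial ribosomal protein genes held 10 of 364, or 2.75% (1.33 to 4.99), and 10 of 686, or 1.46% (0.701 to 2.66), the latter close to its list. Tubulin and actin genes held 3 of 57 and 2 of 86, with ACTG1 and TUBA1A in both. Gene groups differ in RNA level, which the lists do not give, so its part in these shares was not tested.

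**Figure D4:**
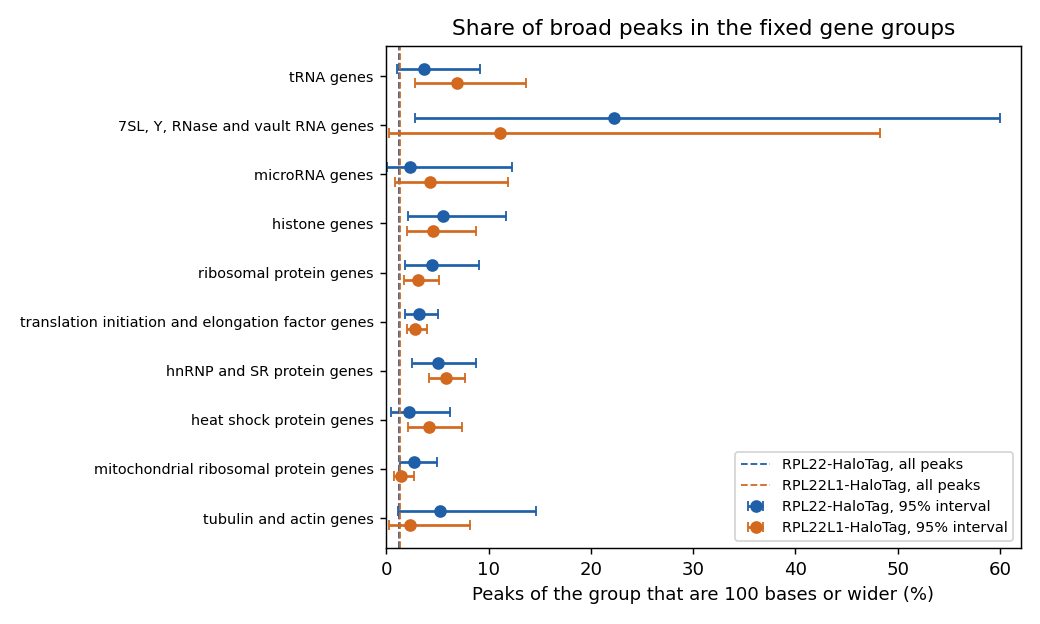
Share of the peaks of a gene group that are 100 bases or wider (%), with exact 95% intervals, for groups with at least 3 broad peaks in both lists together. Dashed lines mark the lists as a whole (1.24% and 1.35%), and the hnRNP and SR protein genes lie at 5.02% and 5.78%.

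Further named genes held broad peaks in the RPL22L1 list alone. In that list 1.35% of all peaks were broad, and in the RPL22 list 1.24%. MDM4, the p53 regulator, had 1 in the RPL22L1 list (chr1:204549387-204549517, score 140) among 40 peaks and 0 among 9 in the RPL22 list, and it met no RPL22 peak. UBAP2L had 1 of 38 in the RPL22L1 list (score 100), on an RPL22 peak of 61 bases, and 0 of 18 in the RPL22 list. Among so few peaks, 0 or 1 broad ones in MDM4 and UBAP2L are near the shares of the lists. MALAT1, an abundant nuclear lncRNA, held 5 broad among 23 RPL22L1 peaks, with scores of 10175, 9830, 8471, 5840 and 5177. All 5 summits also lay in TALAM1, its antisense gene, and none met an RPL22 peak. NEAT1, the lncRNA of paraspeckles, held 2 among 37 (scores of 1964 and 746), again without a partner. No partner was found for 1565 of all 3420 RPL22L1 broad peaks. The RPL22 list had 0 broad peaks in both lncRNA genes and 2 and 3 peaks in all, so 0 there is near its share.

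Broad peaks on small RNA genes were few, and those on tRNA genes mostly ran past an end of the gene. Sharing a base with a small RNA gene was seen for 12 RPL22 broad peaks, or 0.630% (0.326 to 1.1), against 0.295% of all RPL22 peaks, and for 38 RPL22L1 ones, or 1.11% (0.787 to 1.52), against 0.248%. Narrower peaks that are not flat reached 0.747% and 0.926%. tRNA genes accounted for 7 and 25. Of all peaks touching a tRNA gene, 7 of 207 were broad in the RPL22 list, or 3.38% (1.37 to 6.84), and 25 of 240 in the RPL22L1 list, or 10.4% (6.86 to 15). A tRNA gene, at a median of 73 bases, is shorter than any broad peak, so each had to leave the gene on at least 1 side. It did so on exactly 1 side in 5 of 7 and 24 of 25 cases, by a median of 43 and 76 bases over all of them. The summit lay inside the gene in 4 and 7, and of the 18 RPL22L1 summits outside, 9 were within 10 bases of the gene. The gene table has no strand for tRNA genes, so leader and trailer are not told apart, and many tRNA genes are near-identical copies among which reads may be split.
Of the 7 tRNA genes with a broad RPL22 peak, 6 also had a broad RPL22L1 peak. At TRQ-CTG5-1 (chr6:27295433-27295504) the peaks were chr6:27295442-27295579, the top RPL22 broad peak with a score of 9915, and chr6:27295436-27295580, with a score of 604. They left the gene on the same side by 75 and 76 bases, but the summits lay 89 bases apart, inside the gene for RPL22 and outside for RPL22L1. At TRK-CTT1-2 (chr15:78860562-78860634) the peaks left the gene by 96 and 111 bases and the summits, both inside, were on neighbouring bases. At TRP-TGG1-1 (chr14:20633006-20633077) both peaks covered the gene whole and ended on the same base, 36 bases past it (scores of 5159 and 5878). At TRV-CAC2-1, TRN-GTT24-1 and TRG-CCC4-1 both peaks left the gene on the same side, by 29 and 40, 44 and 49, and 43 and 41 bases. Their summits lay 69, 8 and 14 bases apart. At TRV-CAC2-1 and TRN-GTT24-1 the summit was inside the gene for RPL22 and outside for RPL22L1, and at TRG-CCC4-1 outside for both. TRR-TCT1-1 had the highest score of a tRNA gene in the RPL22L1 list, 17317, on a narrower RPL22 peak of 39 bases.

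**Figure D5:**
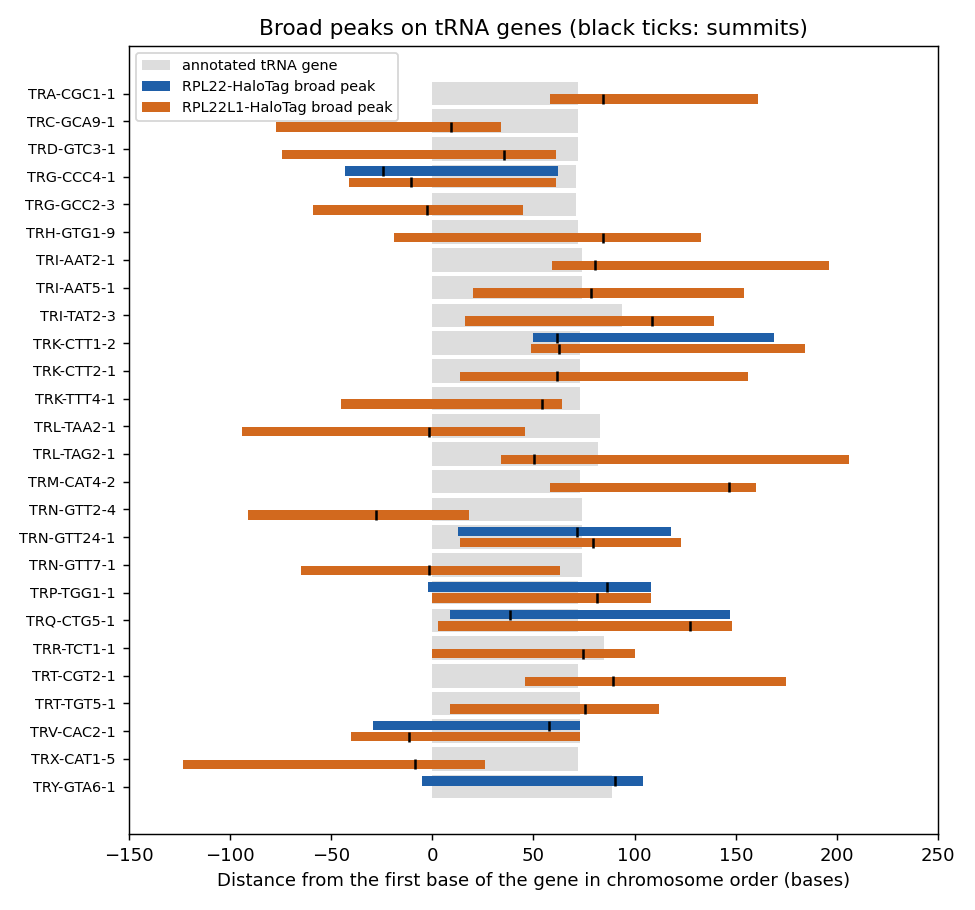
Broad peaks on tRNA genes, drawn in bases from the first base of the gene in chromosome order (strand not given). Grey bars are the genes, blue and orange bars the broad peaks of RPL22-HaloTag and RPL22L1-HaloTag, and black ticks the summits. At TRQ-CTG5-1 both peaks run past the same end by 75 and 76 bases.

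RMRP, the RNA of RNase MRP, had a broad peak in both lists, chr9:35657747-35657927 (score 7645) and chr9:35657746-35657881 (score 7071), with both summits at base 35657763. Among the other small RNAs, the RPL22 list had a broad peak on the vault RNA gene VTRNA1-3 (score 614). The RPL22L1 list had one on the box C/D snoRNA gene SNORD97 (chr11:10801469-10801607, score 12405), covering 97.9% of it, and on the snRNA genes RNVU1-15 (score 3573) and RNU2-63P (score 892). Of 62 RPL22 and 72 RPL22L1 peaks in box H/ACA snoRNA genes, 0 were broad, with exact intervals that reach up to 5.78% and 4.99%. The highest score of any broad peak, 947384, was at RNU5E-6P (chr1:44819879-44819979), a pseudogene copy of U5 snRNA, on an RPL22 peak of 31 bases. Reads there cannot be told from those of the U5 genes if they match both.
Of the broad peaks with a summit outside genes, tRNA genes lay nearest within 200 bases for 3 of 22 RPL22 and 21 of 73 RPL22L1 ones. A further 12 and 42 were over 1000 bases from any gene.

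The labelled cell type was checked with marker genes. All 6 colon epithelium markers (EPCAM, KRT8, KRT18, KRT19, CDH1, CDX2) held peaks in both lists, from 2 to 18 and from 3 to 20 per gene, and KRT8 held 1 broad peak in both. Of 4 markers of other cell types, PTPRC held 0 peaks in both lists, ALB 0 and 1, COL1A1 9 and 6 and PECAM1 6 and 2, none of them broad. The lists do not show RNA levels, so these counts describe peaks only. The number of reads behind the lists is unknown.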

How the data were processed

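Peak lists of 2 libraries were used, as deposited by the authors. The submitters' processing notes name cutadapt 4.8, STAR 2.7.10a, UMI-tools 1.1.5 and MACS3 3.0.0a6 and the build hg38. Their settings, any control and the handling of multiply matching reads are not given in the sources used here. Each deposited list gave position, summit and a whole-number score per peak, with no strand. The scale of the authors' score is not stated, so scores were compared only within a list. Peaks were listed per library.

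Width was end minus start. Coordinates are GRCh38, counted from 1. Summits were given to the shortest of 59094 RefSeq genes (GRCh38.p14) and overlap meant at least 1 shared base. Base composition of whole peaks was not computed, since no genome was used here. Shares carry exact Clopper-Pearson 95% intervals and stand beside the same share of the whole list. There were no replicates, so no test between libraries was run. Alternatives were other width limits, overlap rules, gene rules and score limits, given in the closing section.

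The members, gene lists and naming rules were chosen with earlier results of these data known. Named were, per list, the 10 broad peaks of highest score, the 10 widest, the 10 highest in protein-coding genes, and the 5 highest without a partner and outside genes. Also named were the 5 genes per gene type with most broad peaks, 6 fixed genes, and members of fixed groups with a broad peak in both lists. Other genes, such as those broad in 1 list only and the sequences shown, were chosen after their values were seen. The text gives a part of the named peaks, and a few items are not reported here. Computations used scipy 1.17.1, pandas 2.3.3 and numpy 2.4.6 in Python 3.11.15, with figures by matplotlib 3.10.9, and gene assignment and overlap were tested on simulated data.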

Additional observations from a re-analysis of the deposited data

Results flagged for a closer look

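Peaks on chrR, a sequence name that the GRCh38 assembly does not have, were left out of all comparisons. Of the 19 RPL22 peaks on it 6 were broad, the widest at 357 bases, and of the 28 RPL22L1 peaks 3 were, the widest at 323 bases. What the sequence is was not given in the sources used here. These peaks were singled out because they lie outside the main measurement, and no control library was analysed here.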

How the results depend on the processing

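With limits of 80 and 120 bases in place of 100, the lists held 4886 and 823 broad peaks for RPL22 and 8547 and 1625 for RPL22L1. The shares overlapping any peak of the other list became 63.5% and 76.1% for RPL22 and 43.5% and 58.8% for RPL22L1. Those overlapping a broad peak became 18.2% and 11.3%, and 10.4% and 5.66%. Broad peaks in the fixed gene groups, 64 and 138 in the main setting, became 143 and 36 for RPL22 and 290 and 79 for RPL22L1. When at least 50% of both peaks had to be shared, 28.1% and 19.6% overlapped any peak and 14.1% and 7.84% a broad one. By the summit alone it was 47.2% and 36.4%. Against the upper scoring part of the other list, from its median on, it was 62.6% and 51.5%. Added after seeing the data, leaving out flat peaks of the other list gave 55.6% and 52.2%, and an RPL22L1 list of equal size by score gave 66.0% for RPL22. Each of these overlap shares remained above that of all peaks in the main setting. The share in protein-coding genes was 96.0% and 93.7% with the longest gene and 92.9% and 91.3% from 80 bases. From the median broad score on, it was 91.6% for RPL22L1. Summits within 10 bases were 32.1% for RPL22L1 in pairs of broad peaks. Merging peaks over gaps of 10 bases left the counts at 1906 and 3420. Promoter window shares, also recomputed after seeing the data, ran from 2.50% to 3.28% for RPL22 and from 0.643% to 0.749% for RPL22L1. No paired analysis was possible because each fusion had 1 library and no test was run. Read depth was unknown, so no limit on undetected partners can be given.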
